A study of Mus musculus with 12 samples.

Results

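The constitutive proteasome subunits were the genes with a symbol made of Psma, Psmb, Psmc, Psmd or Psme and a number that both gene tables list, without the inducible subunits Psmb8 and Psmb9. This rule took 40 of the 50433 genes listed in renal tubular epithelial cells (TECs). It uses names and no measured value. Of the 40 members, 39 had enough counts to be tested in TECs and 39 in blood neutrophils (PMN), and the remaining gene, Psma8, a variant alpha subunit known from testis, had at most 0.201 CPM (counts scaled to the library's total and between libraries) in any TEC library and was listed at 0 in every PMN library. The 12 libraries came from wildtype C57BL/6J male mice of 8 to 12 weeks after ischemia-reperfusion injury (IRI) of the kidney, in which both renal pedicles were clamped for 35 minutes. The glutamine groups had received the dipeptide N(2)-L-alanyl-L-glutamine intravenously at 0.5 g/kg and the vehicle groups saline, with 3 libraries per group and cell type. TECs were sorted from kidney as CD45-negative, Prominin-1-positive cells and PMN came from peripheral blood, both 24 hours after IRI. Every group had therefore been through IRI, and no uninjured library was analysed here. The labels do not name an animal for each library, so p-values measure only the spread between these samples, which may be technical.

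The proteasome degrades proteins that carry ubiquitin. Its core particle is a barrel of stacked rings, in which alpha subunits form the gate and beta subunits form the chamber, and in the standard core the beta subunits encoded by Psmb5, Psmb6 and Psmb7 cut peptide bonds. Inducible or thymic catalytic subunits can take their places. A regulatory particle caps the barrel: its base holds the ATPases that unfold a substrate and its lid holds the enzyme that removes ubiquitin. When proteasome activity falls short, the transcription factor encoded by Nfe2l1 is known to raise subunit genes together through antioxidant response elements. The members comprised 7 alpha and 4 noncatalytic beta genes, the 3 catalytic beta genes, 9 genes of the base, 8 of the lid, 2 assembly chaperones (Psmd5 and Psmd9), 4 genes of other activators (Psme1 to Psme4) and 3 variant subunits that the naming rule also takes (Psma8, the inducible Psmb10 and the thymic Psmb11). Core particle below means the 14 alpha and beta genes and regulatory particle the 17 genes of base and lid. The 40 genes lie on 15 chromosomes, with 8 on chromosome 11.

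RefSeq (GRCm38.p6) gave a promoter window for 33 of the 40 members, and the 250 bases before the start were searched on both strands. The antioxidant response element core TGACNNNGC was present for 5 of 33 members, against 11.5% of all 27025 genes with a window. It was present for 2 of 14 regulatory particle genes and 2 of 11 core genes with a window. In the regulatory particle genes Psmc6 and Psmd12 it begins 227 and 247 bases before the RefSeq start. The catalytic gene Psmb7 had no window. The 2 core genes were the catalytic genes Psmb5 and Psmb6, whose TEC values are given below. They are shown because they are catalytic genes, a choice made with their TEC values known, and capitals mark the element. It begins 47 bases before the RefSeq start in Psmb5 and 9 bases before it in Psmb6. In the assembly chaperone gene Psmd9 it begins 31 bases before that start. A stretch ends before the start of the gene in RefSeq or in GENCODE M21, whichever lies further upstream, so that the last 27 bases before the RefSeq start of Psmb5 are left out.
Psmb5 (chr14:54618023-54618142, minus strand): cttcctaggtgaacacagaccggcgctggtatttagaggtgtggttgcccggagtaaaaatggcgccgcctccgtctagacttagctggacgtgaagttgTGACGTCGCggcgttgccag
Psmb6 (chr11:70525237-70525356, plus strand): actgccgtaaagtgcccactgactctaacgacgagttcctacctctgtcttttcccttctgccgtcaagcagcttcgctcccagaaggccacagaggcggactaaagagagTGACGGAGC
The ETS site CCGGAAG (or its reverse complement CTTCCGG) was more frequent in the regulatory particle, a difference that was not tested. It was present for 8 of 14 regulatory particle genes with a window and 1 of 11 core genes, against 7.83% of all genes, and no site of 1 motif overlapped a site of another. The CCAAT box, searched as CCAAT or ATTGG, was present for 6 of 11 core genes and 4 of 14 regulatory particle genes, against 37.5% of all genes. The median share of G and C was 57.6% in regulatory particle windows, 54.6% in core windows and 52.4% in all windows, and its part in these counts was not tested. The base scaffold gene Psmd2 and the lid gene Psmd11 are shown with the ETS site in capitals.
Psmd2 (chr16:20651592-20651651, plus strand): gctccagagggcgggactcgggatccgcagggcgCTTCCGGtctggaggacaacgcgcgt
Psmd11 (chr11:80428555-80428614, plus strand): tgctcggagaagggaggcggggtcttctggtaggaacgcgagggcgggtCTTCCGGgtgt
These matches are letters in a window, and no binding was measured.

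The TEC libraries held 5397370 to 10223461 counts and the PMN libraries 20225246 to 21878446. Summed proximal tubule markers lay at 4162 to 6169 CPM in TEC vehicle libraries and 4290 to 6677 CPM in TEC glutamine libraries, and 9 of 10 had the higher mean with glutamine. The thick ascending limb list summed to 1151 to 2104 and 1388 to 2497 CPM, with 5 of 5 higher. The 12 neutrophil markers summed to 103 to 247 and 122 to 266 CPM, with 11 of 12 higher and with Camp and Ltf under 1 CPM in every TEC library. Red cell and platelet markers summed to 806 to 4404 and 975 to 6727 CPM, with 5 of 6 higher. Endothelial markers summed to 259 to 368 and 227 to 336 CPM, with 1 of 5 higher, and stromal markers to 11 to 14.6 and 12.2 to 27.3 CPM, with 2 of 5 higher. The groups overlapped in each of these sums, and the part of these cells in the TEC results was not tested. In PMN the same neutrophil list summed to 37081 to 59559 CPM with vehicle and 29829 to 82652 CPM with glutamine, and proximal tubule markers to 21.6 to 92.8 CPM over both groups. Other kidney and vessel lists differed widely between PMN vehicle libraries, from 2.66 to 1487 CPM for endothelium, 4.23 to 1076 CPM for thick ascending limb and 4.57 to 194 CPM for distal and collecting duct. In PMN glutamine libraries these lists reached at most 58.9, 34.5 and 4.37 CPM, and their part in the PMN results was not tested. In RNA from sorted cells, fewer cells of a type and less RNA per cell cannot be told apart.

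In TECs, all 14 core particle genes had lower fitted levels with glutamine, and no single member passed the adjusted threshold. The median log2 fold change, glutamine over vehicle, was -0.32 over the core and -0.14 over the regulatory particle, in which 15 of 17 genes were lower, beside 0.01 over all 14734 genes tested, of which 49.4% were lower. In edgeR's quasi-likelihood test 0 of 39 members (0% of all genes tested) had an adjusted p-value below 0.05, and the smallest adjusted p-value of a member was 0.249. DESeq2 also called 0 members at its adjusted threshold, while it called 2.37% of 13016 genes. At an unadjusted p-value below 0.05 in edgeR, 5 of 39 members were lower, against 5.51% of all genes, and 0 were higher, against 7.23%. In 10 of 39 members every glutamine library lay below every vehicle library, which held for 9.81% of all genes. In 0 members every glutamine library lay above every vehicle library, against 9.01% of all genes. The members' fold changes had a median standard error of 0.21 on the log2 scale, beside 0.36 over all genes. Leaving out vehicle replicate 4 reduced the 5 lower members to 3, while the share of all genes lower at that threshold went from 5.51% to 2.94%. Leaving out vehicle replicate 5 or glutamine replicate 3 raised the lower members to 8, beside 7.68% and 5.98% of all genes, the latter also with 1 higher member beside 7.59%. The 14 lower core genes became 12 without vehicle replicate 3, where Psma4 and Psma7 turned to 0.06 and 0.03 on the log2 scale, and 13 without glutamine replicate 3, and were 14 without each of the other libraries. The core median ran from -0.39 to -0.24 and the regulatory particle median from -0.22 to -0.16 in these fits. The medians lay closest without glutamine replicate 1, at -0.27 and -0.22, and without glutamine replicate 2, at -0.24 and -0.19.

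The core was lower by more than the regulatory particle when each was summarised per library. The mean log2 CPM of the 14 core genes was 6.96, 6.80 and 6.72 in vehicle replicates 3, 4 and 5 and 6.37, 6.38 and 6.56 in glutamine replicates 1, 2 and 3. The same mean over the 17 regulatory particle genes was 7.17, 7.12 and 7.13 with vehicle and 6.94, 6.92 and 7.0 with glutamine. Neither particle's groups overlapped. Core minus regulatory particle was -0.21, -0.31 and -0.40 with vehicle and -0.58, -0.54 and -0.44 with glutamine, a mean difference between groups of -0.21 that kept its sign, between -0.26 and -0.16, without each library in turn. These groups did not overlap either, although vehicle replicate 5 and glutamine replicate 3 lay close together. The mean weights every gene alike, including the scarce Psmb7 described below. Without Psmb7, a comparison added after its level was seen, core minus regulatory particle was 0.18, 0.14 and -0.01 with vehicle and -0.07, -0.09 and -0.02 with glutamine, a difference of -0.16. When CPM were summed instead, which gives weight to genes with many counts, core over regulatory particle was 0.815, 0.743 and 0.665 with vehicle and 0.632, 0.646 and 0.686 with glutamine. In that ratio the groups overlapped, since vehicle replicate 5 lay below glutamine replicate 3. None of these summaries was tested.

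**Figure D1:**
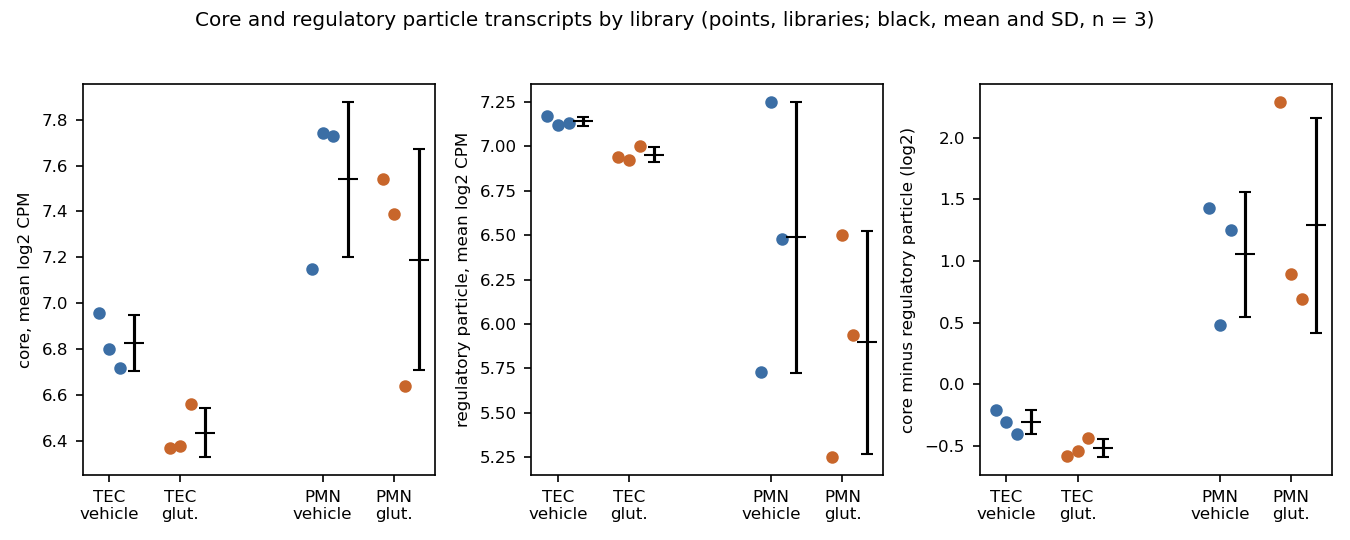
Mean log2 CPM of the core particle genes, of the regulatory particle genes and the core minus regulatory particle difference, each on its own vertical axis. Each point is 1 library, blue for vehicle and orange for glutamine, and black marks are the mean and SD of 3. The TEC groups do not overlap in these log2 means, although they do in the ratio of summed CPM, and the PMN groups overlap in every panel.

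Library composition moved with treatment in TECs. Predicted genes with a Gm symbol took 16.1%, 19.5% and 21.7% of the counts in the vehicle libraries and 26.2%, 24.9% and 29.4% in the glutamine libraries. Cytosolic ribosomal protein genes took 5.32%, 5.21% and 4.7% with vehicle and 3.7%, 3.82% and 3.75% with glutamine. The 100 genes with the most counts took 36.7%, 36.8% and 39.6% with vehicle and 44.4%, 43.9% and 44.1% with glutamine. With predicted, Rik and receptor genes removed before scaling, 14 of 14 core genes were still lower with a median of -0.26, and 13 of 17 regulatory particle genes with a median of -0.09. The part of the ribosomal protein share and of the share in the top 100 genes was not tested.

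The catalytic genes showed the lowest median of the core in TECs, at -0.54. Psmb5 (chr14:54614119-54618022), which encodes the chymotrypsin-like subunit, had 242, 239 and 261 CPM in the vehicle libraries and 165, 170 and 175 CPM in the glutamine libraries. All glutamine values were thus below the lowest vehicle value, with 247 ± 12.1 CPM against 170 ± 4.64 CPM (SD, n = 3). The log2 fold change was -0.54 ± 0.18 (SE; edgeR's quasi-likelihood test, unadjusted p = 0.0115, adjusted p = 0.262). Psmb6 (chr11:70525367-70527858), the caspase-like subunit, had 185, 175 and 186 CPM with vehicle and 109, 144 and 123 CPM with glutamine. Again the groups did not overlap, and the log2 fold change was -0.53 ± 0.19 (SE; edgeR's quasi-likelihood test, unadjusted p = 0.0181, adjusted p = 0.296, and DESeq2 adjusted p = 0.189). The study's own list of differentially regulated TEC genes, drawn from these samples, includes this subunit by its protein name, under a gene symbol spelled differently. The direction of Psmb6 here is therefore not independent evidence. That list gives an s-value for each gene, a measure unlike the adjusted p-values here, at which neither edgeR nor DESeq2 called Psmb6.

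Psmb7 (chr2:38588036-38644087), the trypsin-like subunit, stood apart by its level. It had 3.55, 1.61 and 2.75 CPM with vehicle and 0.601, 1.21 and 1.86 CPM with glutamine, and these groups overlapped. Its log2 fold change of -1.09 ± 0.73 (SE) had an adjusted p-value of 0.556 in edgeR's quasi-likelihood test. Per kb of coding transcript it reached 2.27 CPM in vehicle TECs, beside 325 for Psmb5, 228 for Psmb6 and 36.5 for Psma5, the next lowest core gene. The annotation places Nek6 on the opposite strand over 6571 bases of Psmb7, and the counting is not stated to use strand. The part of this overlap in the low TEC level was not tested. In PMN, which were counted in a separate table, Psmb7 had 65.1 to 191 CPM.

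**Figure D2:**
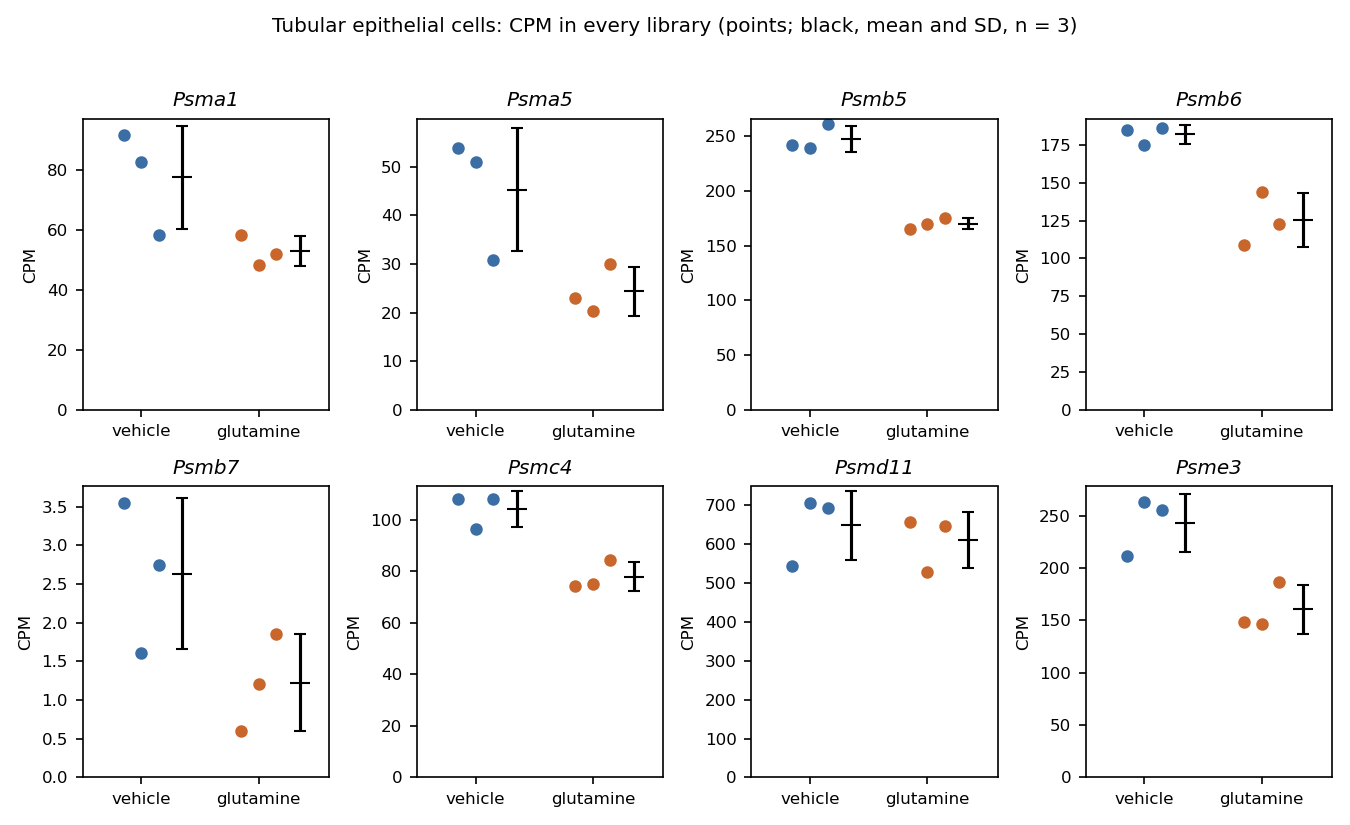
CPM of 8 members in TECs on linear axes that start at 0, with 1 point per library and black marks for the mean and SD of 3. The glutamine points of Psma1, Psma5, Psmb5, Psmb6, Psmc4 and Psme3 all lie below the vehicle points, while those of Psmb7 and Psmd11 overlap.

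The alpha ring genes had a median log2 fold change of -0.33, with 7 of 7 lower, and held the member with the smallest p-value. Psma5 (chr3:108256926-108279974) had 53.9, 51 and 30.7 CPM in vehicle replicates 3, 4 and 5 and 22.9, 20.3 and 30 CPM with glutamine. The groups did not overlap, but vehicle replicate 5 exceeded glutamine replicate 3 by less than 1 CPM. Its log2 fold change was -0.88 ± 0.28 (SE; edgeR's quasi-likelihood test, unadjusted p = 0.00877, adjusted p = 0.249) and ranged from -1.10 to -0.74 without each library in turn. Psma1, chosen after its values were seen because it completes the members lower at an unadjusted p-value below 0.05, had 91.6, 82.6 and 58.5 CPM with vehicle and 58.3, 48.4 and 51.9 CPM with glutamine, a log2 fold change of -0.55 ± 0.23 (SE; edgeR, adjusted p = 0.353). Vehicle replicate 5 was again next to the glutamine libraries. Psma7, the alpha gene with the highest mean CPM, had 383, 284 and 276 CPM with vehicle and 327, 293 and 239 CPM with glutamine, and its groups overlapped (log2 fold change -0.14, edgeR adjusted p = 0.82). The 4 noncatalytic beta genes had log2 fold changes from -0.24 to -0.13. Among them Psmb1 had 186, 204 and 218 CPM with vehicle and 157, 159 and 200 CPM with glutamine, and Psmb4 249, 266 and 221 CPM with vehicle and 205, 185 and 257 CPM with glutamine. Both genes overlapped between groups.

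In the regulatory particle, the base had a median log2 fold change of -0.26 with 9 of 9 genes lower, and the lid -0.09 with 6 of 8 lower. No gene of either was past an unadjusted p-value of 0.05, beside 5.51% of all genes lower and 7.23% higher. The ATPase gene Psmc4 had 108, 96.2 and 108 CPM with vehicle and 74.4, 74.9 and 84.3 CPM with glutamine, without overlap (log2 fold change -0.41 ± 0.19, edgeR's quasi-likelihood test, unadjusted p = 0.0518, adjusted p = 0.395). Psmc3, also an ATPase and the base gene with the highest mean CPM, had 210, 203 and 265 CPM with vehicle and 180, 189 and 179 CPM with glutamine, also without overlap (log2 fold change -0.31, or -0.19 without vehicle replicate 5, edgeR adjusted p = 0.518). Psmc3 shares 4579 bases with Slc39a13 on the opposite strand. The lid gene Psmd12 had 72.7, 77.9 and 62 CPM with vehicle and 45.4, 47.4 and 62.1 CPM with glutamine, so that glutamine replicate 3 reached the lowest vehicle library (log2 fold change -0.46, edgeR adjusted p = 0.409). Psmd11, whose product holds the lid to the core, was the member with the highest mean CPM, at 545, 706 and 694 CPM with vehicle and 656, 528 and 647 CPM with glutamine. Its groups overlapped, with a log2 fold change of -0.09 ± 0.20 (SE; edgeR adjusted p = 0.885) that became 0.01 without glutamine replicate 2. Per kb of coding transcript, Psmd11 had 290 CPM and the deubiquitinase gene Psmd14 23.8 CPM in vehicle TECs.

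**Figure D3:**
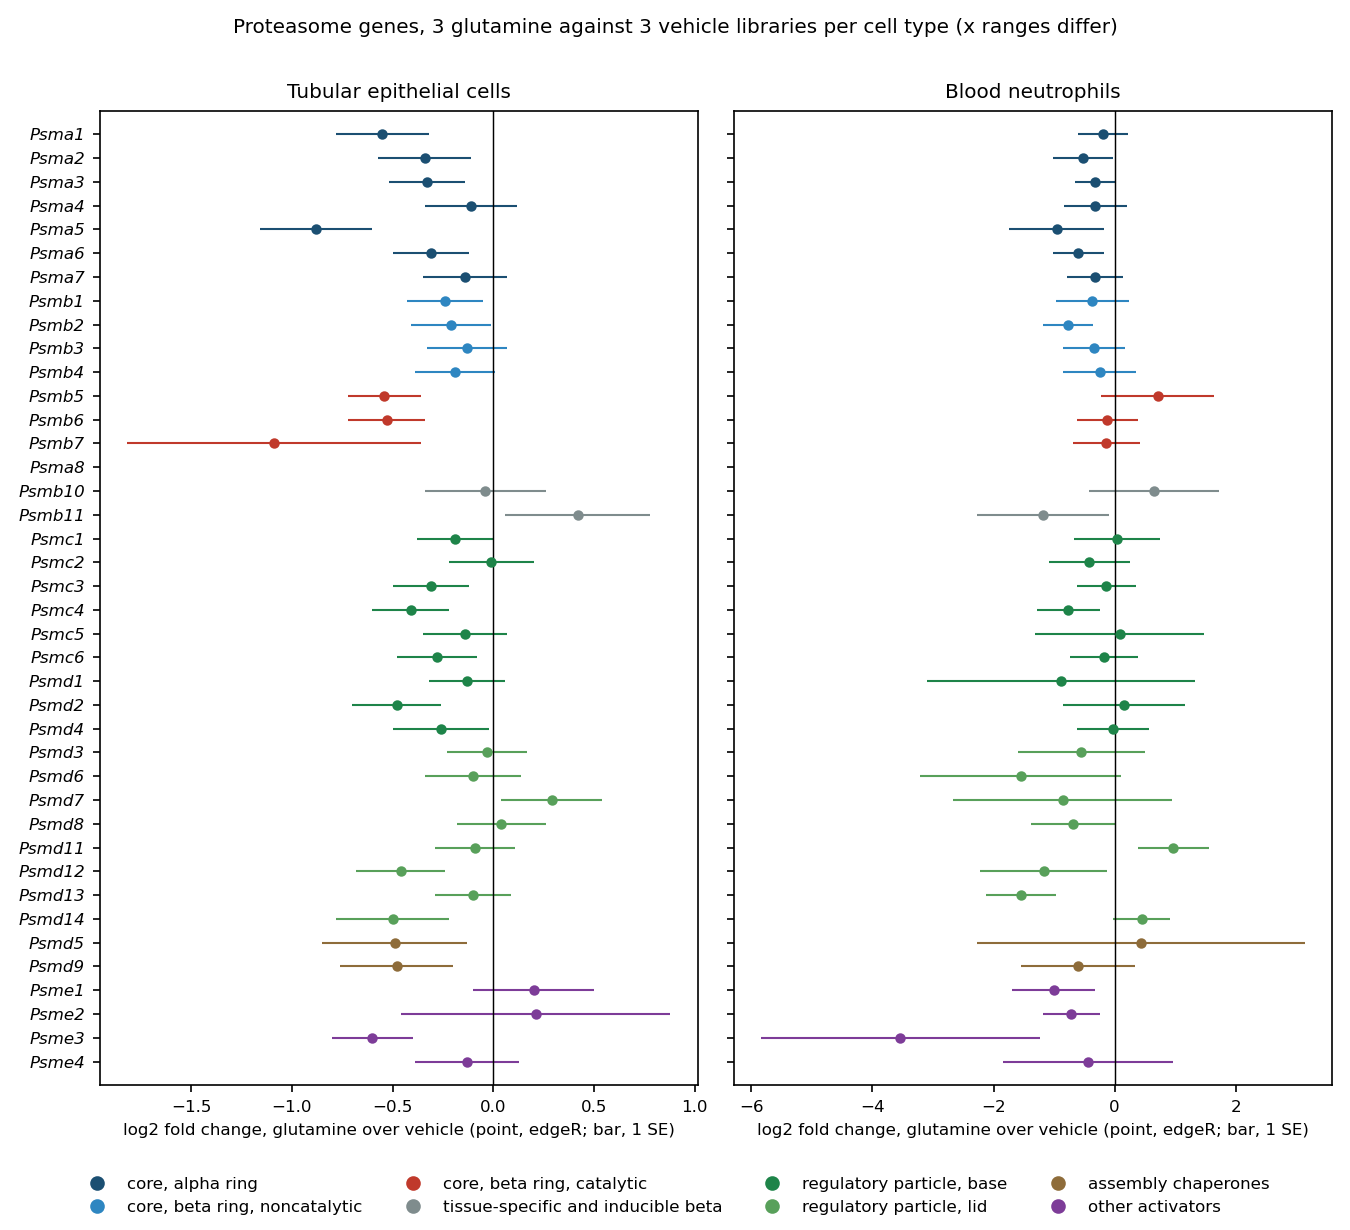
Log2 fold change of each tested member, glutamine over vehicle, in TECs (left) and PMN (right), with 1 SE from edgeR and with horizontal ranges that differ between the panels. Colours mark the role, and Psma8 has no point because it was not tested. In TECs 34 of 39 points lie left of 0, and in PMN 31 of 39 do so with far longer bars.

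Of the members outside both particles, 1 was past an unadjusted p-value of 0.05 in TECs, beside 5.51% of all genes lower and 7.23% higher. Psme3, which encodes the nuclear activator of the core, had 211, 263 and 255 CPM in TEC vehicle libraries and 148, 146 and 187 CPM in glutamine libraries. It did not overlap, and its log2 fold change was -0.60 ± 0.20 (SE; edgeR's quasi-likelihood test, unadjusted p = 0.012, adjusted p = 0.265). Psme1 and Psme2, which form the interferon-inducible activator, had log2 fold changes of 0.20 and 0.21 and overlapped. Without each library in turn these ran from -0.06 to 0.44 and from -0.60 to 0.60, so neither gene kept its direction. Psme2 had 11 to 111 counts in TECs while its near-identical copy Psme2b had 159 to 529, so the split of reads between them is uncertain. The chaperone gene Psmd9 had 38.1, 42.5 and 67.5 CPM with vehicle and 41.2, 25.9 and 38.5 CPM with glutamine, with overlap (log2 fold change -0.48, or -0.19 without vehicle replicate 5, edgeR adjusted p = 0.494). Psmb10 had 23, 27.1 and 13.7 CPM with vehicle and 22.3, 19.7 and 20 CPM with glutamine, and Psmb11 6.91, 9.76 and 7.13 CPM and 13.1, 11.4 and 7.46 CPM. Neither passed an unadjusted p-value of 0.05. Of the inducible subunits outside the rule, Psmb8 had 5.3 to 9.58 CPM with vehicle and 9.01 to 12.7 CPM with glutamine, and Psmb9 had at most 1.78 CPM and was not tested.

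Of 37 further genes of the pathway tested in TECs (assembly factors, ubiquitin genes, shuttles and regulators), 26 had lower fitted levels, against 49.4% of all genes, and the median log2 fold change was -0.21. At an unadjusted p-value below 0.05 in edgeR, 3 were lower and 1 was higher, against 5.51% and 7.23% of all genes. Nfe2l1 itself had 115, 99.9 and 89 CPM with vehicle and 81.1, 64.9 and 68.5 CPM with glutamine. The groups did not overlap, with a log2 fold change of -0.50 ± 0.20 (SE; edgeR's quasi-likelihood test, unadjusted p = 0.032, adjusted p = 0.348). Mafk, a small Maf protein that pairs with this class of factor, had 8.19, 9.23 and 11.5 CPM with vehicle and 16.6, 15.7 and 16.3 CPM with glutamine, and was the higher gene (log2 fold change 0.75 ± 0.29, edgeR adjusted p = 0.33). The lower genes also included Psmg4, an assembly chaperone of the core, at -0.64, and Nsfl1c, a cofactor of the unfoldase Vcp, at -0.51 on the log2 scale.

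In PMN the same genes varied far more between libraries of 1 group. The median within-group SD of log2 CPM was 0.81 over the members tested, beside 0.21 in TECs. Over all genes tested it was 1.74 in PMN and 0.43 in TECs, so the wider spread in PMN was not particular to the members. The median log2 fold change was -0.32 over the core, with 13 of 14 genes lower, and -0.42 over the regulatory particle, with 12 of 17 lower, beside 0.00 over the 10130 genes tested, of which 50% were lower. In edgeR's quasi-likelihood test 0 of 39 members (0% of all genes) passed the adjusted threshold, and DESeq2 called 0 members and 2.5% of 9464 genes. At an unadjusted p-value below 0.05, 1 member was lower, against 1.37% of all genes, and 0 were higher, against 2.04%. Every glutamine library lay below every vehicle library for 5 of 39 members, against 4.63% of all genes, and above for 2, against 5.87%. The lower member, Psmd13, was lost without vehicle replicate 3, where its log2 fold change went from -1.55 to -0.90, and without glutamine replicate 3, where it was -1.61. Without vehicle replicate 2, or without glutamine replicate 1, 2 members were lower, beside 1.43% and 1.65% of all genes, and the former fit also had 1 higher member beside 3.08%. The core median was -0.17, with 10 of 14 genes lower, without glutamine replicate 3, where the median of all genes was -0.09 and 53.2% were lower. It was -0.62 without glutamine replicate 2, where the median of all genes was -0.11 and 53.7% were lower. Leaving out vehicle replicate 1 or glutamine replicate 1 gave -0.49, beside 0.01 and -0.06 over all genes. The regulatory particle median was -0.05, with 9 of 17 genes lower, without vehicle replicate 2 (all genes 0.08), -0.25 without glutamine replicate 3, -0.65 without vehicle replicate 1 and -0.74 without glutamine replicate 2. With at least 10 counts required in every library, it was -0.22 over 14 genes beside -0.38 for the core, so that the order of the particles turned, as it also did without vehicle replicate 2, where the core median was -0.29.

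The per-library means overlapped between PMN groups. The mean log2 CPM of the core was 7.15, 7.74 and 7.73 in vehicle replicates 1, 2 and 3 and 7.54, 7.39 and 6.64 in glutamine replicates 1, 2 and 3. For the regulatory particle it was 5.73, 7.25 and 6.48 with vehicle and 5.25, 6.50 and 5.94 with glutamine. Core minus regulatory particle was 1.43, 0.48 and 1.25 with vehicle and 2.29, 0.89 and 0.69 with glutamine. The difference between group means, 0.24, was smaller than the SD within either group (0.50 and 0.87), and it changed sign to -0.26 without glutamine replicate 1 and to -0.05 without vehicle replicate 2. With CPM summed instead, core over regulatory particle had a mean of 1.38 with vehicle and 1.35 with glutamine. That ratio went the other way, and its groups overlapped. A list of 7 lymphocyte markers, which includes Ptprc, a gene neutrophils also express, summed to 323 to 570 CPM with vehicle and 787 to 1176 CPM with glutamine. Of that list 4 genes had the higher mean with glutamine and Cd3e, Cd79a and Nkg7 were under 1 CPM in every PMN library, and its part in these values was not tested.

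All 3 catalytic genes were measured well above 1 CPM in PMN and overlapped between groups. Psmb5 had 11.8, 72 and 141 CPM with vehicle and 206, 65.8 and 96.4 CPM with glutamine. Psmb6 had 101, 211 and 234 CPM with vehicle and 224, 174 and 103 CPM with glutamine. Psmb7 had 111, 191 and 121 CPM with vehicle and 134, 187 and 65.1 CPM with glutamine. Their log2 fold changes of 0.71 ± 0.93, -0.12 ± 0.51 and -0.14 ± 0.55 (SE) were smaller than their errors, and each edgeR adjusted p-value was 1. The value for Psmb5 was 0.07 without glutamine replicate 1, 0.17 without vehicle replicate 1 and 1.54 without vehicle replicate 3, and those for Psmb6 and Psmb7 changed sign with 1 library left out. The alpha gene Psma3, the member with the highest mean CPM, was also the steadiest of the members tested with more than 3 counts in every library, with 1.74-fold between the highest and the lowest, at 370, 308 and 375 CPM with vehicle and 390, 224 and 231 CPM with glutamine. Psma6, the alpha gene with the smallest p-value, had 150, 272 and 233 CPM with vehicle and 122, 183 and 128 CPM with glutamine, with overlap. Of the noncatalytic beta genes, Psmb2 had 259, 156 and 313 CPM with vehicle and 123, 159 and 145 CPM with glutamine, and Psmb3 155, 303 and 351 CPM and 243, 289 and 107 CPM. Both overlapped.

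**Figure D4:**
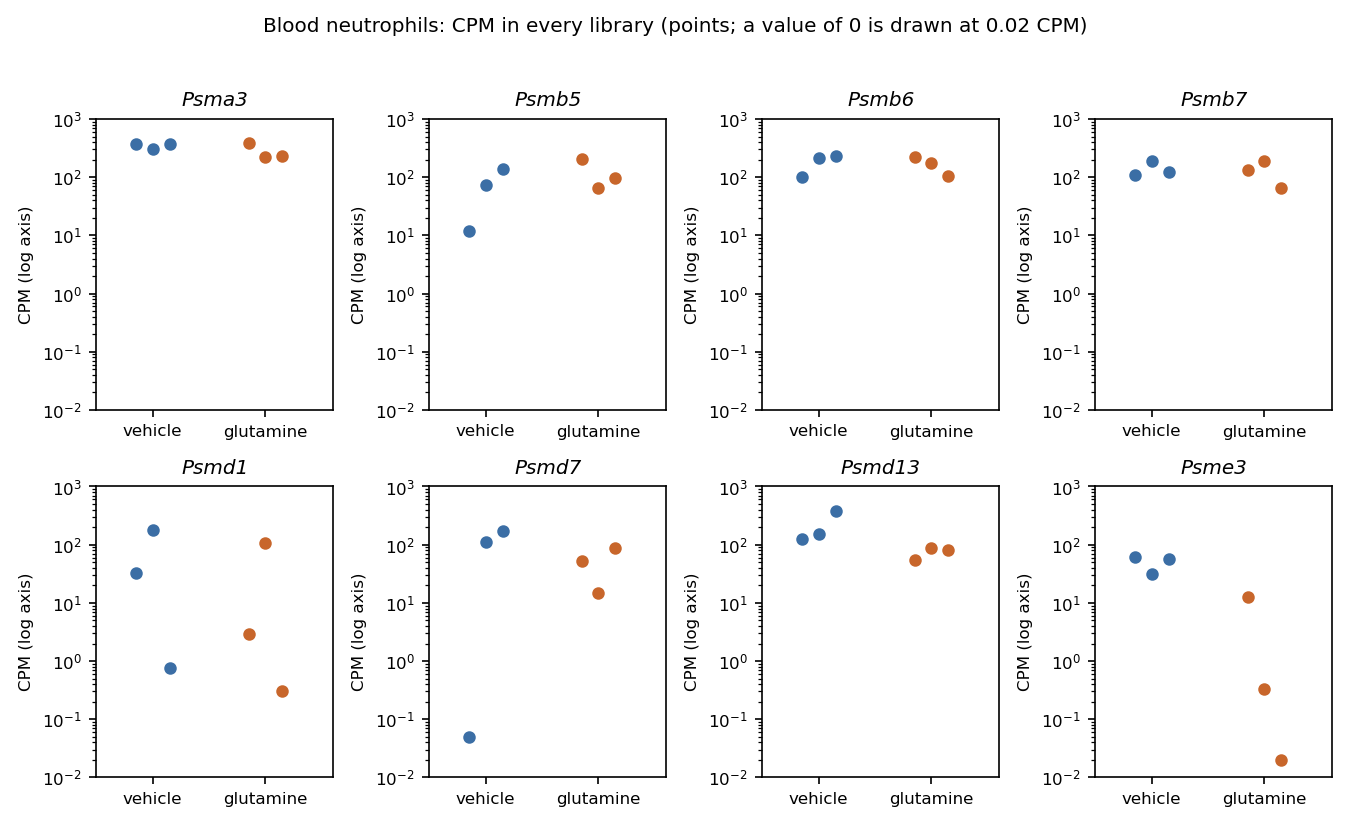
CPM of 8 members in PMN on a log axis, with 1 point per library. Psma3 lies between 224 and 390 CPM in all libraries, Psmd1 and Psmd7 have libraries under 1 CPM beside libraries above 100 CPM in the same group or cell type, and Psmd13 and Psme3 do not overlap between groups.

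The regulatory particle genes had the wider spread, with a median within-group SD of 0.99 log2 units against 0.62 in the core, both below the 1.74 over all PMN genes tested. Psmd1, a scaffold of the base, and Psmd7, a lid gene, were chosen after their values were seen to show it. Psmd1 had 32, 176 and 0.761 CPM with vehicle and 2.95, 109 and 0.301 CPM with glutamine, a 584-fold range within 1 cell type. Psmd7 had 0.0501, 111 and 171 CPM with vehicle and 52, 14.8 and 88.4 CPM with glutamine. Low and high libraries thus occurred within a single group for both genes. Psmd13, a lid gene, was the member past an unadjusted p-value of 0.05: it had 125, 151 and 376 CPM with vehicle and 53.7, 88.7 and 80.6 CPM with glutamine. Its groups did not overlap, and its log2 fold change was -1.55 ± 0.58 (SE; edgeR's quasi-likelihood test, unadjusted p = 0.0333, adjusted p = 1). In TECs, where Psmd13 had 190 to 225 CPM with vehicle and 174 to 206 CPM with glutamine, the log2 fold change was -0.10, and the difference between the cell types was not tested. The ATPase gene Psmc4 had 127, 192 and 170 CPM with vehicle and 107, 127 and 53 CPM with glutamine, where the lowest vehicle library, also 127 when rounded, was just above the highest glutamine library, so that the groups did not overlap. Psmc3 had 230, 294 and 108 CPM with vehicle and 131, 235 and 205 CPM with glutamine, and Psmd8, the lid gene with the highest mean CPM, 119, 262 and 257 CPM and 130, 227 and 37.6 CPM. Both overlapped between groups.

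Among the remaining PMN members, Psme3 had 62, 31.2 and 56.7 CPM with vehicle and 12.5, 0.33 and 0 CPM with glutamine. It passed the expression filter through the vehicle libraries, beside 238, 7 and 0 counts in the glutamine libraries. The groups did not overlap, but glutamine libraries near 0 left the log2 fold change at -3.54 ± 2.30 (SE; edgeR's quasi-likelihood test, unadjusted p = 0.168, adjusted p = 1), a fitted value and no bound, which was -8.20 without glutamine replicate 1 and -6.61 in limma. Psme3 and Psmc4 were the 2 members for which every glutamine library lay below every vehicle library in both cell types, whose tables were normalized separately. In each cell type alone this held for 9.81% of all genes tested in TECs and 4.63% in PMN. The share of all genes for which it held in both was not counted. The count of 2, which includes Psme3 with its filter limit, therefore supports no conclusion about the members, and a shared response was not tested. Psme1 had 156, 129 and 206 CPM with vehicle and 44.5, 158 and 41.3 CPM with glutamine, with overlap. Psmd9 had 76.4, 36 and 60.2 CPM with vehicle and 54, 47 and 13 CPM with glutamine. Psmb10 had 41.6, 24.9 and 51.8 CPM with vehicle and 9.79, 120 and 55.8 CPM with glutamine, and Psmb11 stayed between 0.999 and 7.12 CPM. These 3 genes overlapped between groups.

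Of 35 further pathway genes tested in PMN, 18 had lower fitted levels, against 50% of all genes, and the median log2 fold change was -0.15. At an unadjusted p-value below 0.05 in edgeR, 0 were lower and 3 were higher, against 1.37% and 2.04% of all genes. Of these 3, Psmf1 was at 0 counts and Ube3c under 1 CPM in every vehicle library, so the count supports no conclusion about the pathway. Nfe2l2, a relative of Nfe2l1 that acts on the same element, had 634, 421 and 387 CPM with vehicle and 1132, 649 and 990 CPM with glutamine. The groups did not overlap (log2 fold change 0.94 ± 0.33, edgeR's quasi-likelihood test, unadjusted p = 0.0236, adjusted p = 1). Psmf1, a regulator that binds the core, was at 0 counts in every vehicle library and had 1.37, 48.2 and 50.2 CPM with glutamine. The glutamine mean, which rests on replicates 2 and 3, was at least 232-fold higher than a floor of 3 counts per library. Psmf1 passed the expression filter through the glutamine libraries alone. That fold and its adjusted p-values, 0.852 in edgeR and 1.89e-05 in DESeq2, therefore support no conclusion. Ube3c, a proteasome-bound ubiquitin ligase, had 0.251, 0.502 and 0.0952 CPM with vehicle and 0.0527, 13.2 and 23.4 CPM with glutamine, with overlap. Nfe2l1 had 0, 21.5 and 0 CPM with vehicle and 0.0527, 37.3 and 151 CPM with glutamine. The inducible genes Psmb8 and Psmb9 had 1.25, 153 and 177 CPM and 0.902, 26.6 and 76.3 CPM with vehicle, and 68.4, 135 and 153 CPM and 42.6, 32.6 and 102 CPM with glutamine. Both were near 1 CPM in vehicle replicate 1 only, and both overlapped between groups.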

How the data were processed

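RNA from sorted TECs and from PMN was sequenced, with 50-base reads stated in the paper for the sorted TECs. Both deposited tables hold raw estimated counts for each gene symbol. The submitters' processing notes name Trim Galore 0.6.4, Salmon 1.0.0, DESeq2 and mm10, and the annotation is not given in the sources used here. A spreadsheet program had altered the PMN values: 3.2% of its cells carried extra points and 0.391% had become dates. These were decoded. The first and second column of each PMN library (correlation 0.999), whose meaning the labels do not explain, were averaged. Estimated counts were rounded. Each cell type was fitted separately across all genes with edgeR 4.0.16 in R 4.3.3 (TMM, default expression filter, quasi-likelihood test, Benjamini-Hochberg adjustment, threshold 0.05). CPM values are TMM-scaled. DESeq2 1.42.0, limma 3.58.1, other scalings and filters, and each library left out in turn were the alternatives. The scripts were tested on simulated data. Positions and lengths came from GENCODE M21 (GRCm38, the same assembly as mm10).

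Values were printed for Psmb5, Psmb6 and Psmb7, for the member of each role group with the smallest p-value and with the largest CPM, for up to 3 pathway genes per direction with the smallest p-values below 0.05, and for Psmb8, Psmb9 and Nfe2l1. The members and lists were chosen with earlier results of these data known. Coding genes overlap 9 of the 40 members in the annotation, and whether counting used strand is not stated.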

Additional observations from a re-analysis of the deposited data

How the results depend on the processing

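No paired analysis was possible because number 3 alone occurs in both TEC groups, and in PMN the numbers only name libraries. Under all alternatives, 0 members passed the adjusted threshold in either cell type, and both core medians stayed below 0. Upper quartile scaling gave 8 lower TEC members at an unadjusted p-value below 0.05, beside 6.06% of all genes, removal of predicted, Rik and receptor genes a TEC regulatory particle median of -0.09, and DESeq2 2 lower PMN members, beside 4.18% of all genes. The cause was not tested. Leaving out each library in turn gave 3 to 8 lower and 0 to 1 higher TEC members, a TEC regulatory particle median from -0.22 to -0.16, and 0 to 2 lower and 0 to 1 higher PMN members. The PMN regulatory particle median, below that of the core as reported, lay above it with at least 10 counts in every library (-0.22 against -0.38), in limma (-0.31 against -0.38) and without vehicle replicate 2 (-0.05 against -0.29). Some single genes changed sign, none of them past the adjusted threshold. TEC Psmb10 was 0.02 without predicted genes and 0.01 in limma. For PMN Psme3, Psmb8 and Psmb9 limma gave -6.61, 1.68 and 2.01 in place of -3.54, 0.11 and 0.77. Without each library in turn, the log2 fold change ran from -0.28 to 0.17 for TEC Psmb10, from -0.24 to 0.03 for Psma7, from -0.20 to 0.01 for Psmd11, and in PMN from -1.63 to 0.10 for Psmb11, from -0.50 to 0.62 for Psmb8, from -0.54 to 0.18 for Psmb7, from -0.47 to 0.16 for Psmc3, from -0.44 to 0.12 for Psmb6 and from -0.33 to 1.13 for Psmb10. The PMN core mean varied between libraries with an SD of 0.33 with vehicle and 0.48 with glutamine, beside a difference between groups of -0.35.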
